A study of Mus musculus with 10 samples.

Results

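The immediate early genes examined here encode 3 families of transcription factor and the related regulator Myc: the zinc-finger factors Egr1, Egr2 and Egr3, the basic leucine zipper factors Fos, Fosb and Fosl2, their dimer partners Jun, Junb and Jund, and the helix-loop-helix factor Myc. They were taken by gene symbol from the deposited table of heart RNA, where all 10 were present among 24888 genes, and all 10 passed the filter on low values. Polyadenylated heart RNA of 10 mice was sequenced, with 5 libraries from SPOP_CKI mice and 5 from Cre_control mice. SPOP_CKI mice overexpress SPOP, the substrate adaptor of a cullin-3 ubiquitin ligase, in cardiomyocytes through Cre recombinase driven by the alpha-myosin heavy chain (Myh6) promoter. Cre_control mice are titled wild type but have the genotype Myh6Cre, so both groups carry the same Cre driver. Every mouse is labelled male, aged 8 to 10 weeks and kept under sham conditions. The genotype of the SPOP_CKI mice is given as CKI. The source is whole heart tissue with mixed cardiac cells, so each value is a level in bulk RNA, and strain and litter are not given.

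Immediate early genes are transcribed within minutes of a stimulus without new protein synthesis, from promoters already bound by serum response factor, its ternary complex partners and CREB, which kinases such as ERK, JNK, p38 and RSK activate. Their RNAs are short-lived, and in the heart they are known to respond to stretch, adrenergic and angiotensin signals, ischaemia and handling of the tissue. FOS proteins pair with JUN proteins to form the AP-1 complex, EGR proteins bind GC-rich sites and are held back by the NAB corepressors, and MYC pairs with MAX. SPOP has been reported to bind MYC protein in prostate cells, whereas the values here are RNA.

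Promoter sequences are shown for Egr2, which rose most among the members with a sequence, and for Fos and Jun, which had lower means in SPOP_CKI hearts. Each is the 250 bases before the RefSeq transcription start on GRCm38.p6, read on the gene's strand from 5′ to 3′. Each start coincides with that of a GENCODE M21 transcript in the consensus coding set, and Egr2 has 5 starts in RefSeq, of which this is 1. Capitals mark the CArG box bound by serum response factor, the short CREB motif TGACG and the TATA motif TATAAA, on either strand. Egr2 lies at chr10:67537619-67537868 (plus strand), Fos at chr12:85473640-85473889 (plus strand) and Jun at chr4:95052223-95052472 (minus strand).
Egr2: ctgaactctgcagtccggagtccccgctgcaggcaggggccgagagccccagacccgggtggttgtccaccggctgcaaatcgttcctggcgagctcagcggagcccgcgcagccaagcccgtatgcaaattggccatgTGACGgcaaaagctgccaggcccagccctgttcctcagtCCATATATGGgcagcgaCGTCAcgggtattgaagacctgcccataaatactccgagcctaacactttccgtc
Fos: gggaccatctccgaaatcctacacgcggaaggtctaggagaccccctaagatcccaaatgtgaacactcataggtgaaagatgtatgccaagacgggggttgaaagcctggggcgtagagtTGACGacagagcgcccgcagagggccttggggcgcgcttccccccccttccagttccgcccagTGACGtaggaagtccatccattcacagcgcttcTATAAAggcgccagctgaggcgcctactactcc
Jun: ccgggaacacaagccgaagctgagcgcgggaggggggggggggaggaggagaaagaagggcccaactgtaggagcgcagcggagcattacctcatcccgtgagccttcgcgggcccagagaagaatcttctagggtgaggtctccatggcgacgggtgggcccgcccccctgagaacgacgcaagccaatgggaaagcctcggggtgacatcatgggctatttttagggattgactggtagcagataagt

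The Egr2 window held a CArG box whose first base lay 72 bases before the start, with TGACG motifs beginning 111 and 55 bases before it. The Fos window held TGACG at 129 and 66 bases before the start and TATAAA at 33, and the Jun window held none of the 3. For Fos and Jun only the window shown was searched, so a CArG box farther upstream would not have been counted. The windows therefore cannot tell whether Fos and Jun differ from Egr2 in having a CArG box. RefSeq windows were matched for 7 of the 10 genes (Egr2, Fos, Fosb, Fosl2, Jun, Junb and Jund). For Fosl2 and Jund the RefSeq start lay 671 and 1210 bases from the start of the nearest such GENCODE transcript. Chromosome 18, which holds Egr1, was left out of the matching, and no window was used for Egr3 or Myc. The motif counts therefore do not cover Egr1, Egr3 or Myc. A CArG box was found in 1 of the 7 windows and in 1.47% of all 32851 promoter windows of that length. TGACG was in 4 of the 7 and in 17.8% of all windows, TATAAA in 1 of the 7 and in 12.4%, and the EGR site GCGNGGGCG in 2 of the 7 (Fosb and Fosl2) and in 4.70%. The full CREB site TGACGTCA, the AP-1 site TGANTCA and the MYC site CACGTG were in none of the 7 windows, against 1.55%, 6.75% and 6.02% of all windows. Only exact matches to these patterns were counted, and the window of another Egr2 start held CACGTG, 27 bases before that start. TGACG is part of TGACGTCA, so these counts overlap. A match is a string of letters in this window and was not tested as a binding site.

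Recovered depth was 15316293 to 17114869 reads per library. Values are reads per gene divided by the authors' size factor of the library, called scaled reads. Spop stood between 25308 and 40631 scaled reads in SPOP_CKI and between 3078 and 3726 in Cre_control (log2 fold change 3.20, exact two-sided permutation p = 0.0079, the smallest that 5 libraries a group allow). Library SPOP_CKI 3 stood apart. It had 13167 genes with a read, against 18531 to 20806 in the other libraries, and 61 of 376 well-expressed genes with a transcript GC content of at least 60% were listed at 0 there, against 0 in each of the other 9. Libraries SPOP_CKI 1, SPOP_CKI 3 and Cre_control 5 held 6491, 6578 and 4491 scaled reads of Xist, the female X-inactivation RNA, against at most 5.31 in the others, although all are labelled male. All 10 cardiomyocyte markers were above 0, with a summed level of 369382 to 676115 scaled reads in SPOP_CKI and 641377 to 839105 in Cre_control.

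Across the 10 genes, the Egr family rose in SPOP_CKI hearts and no Fos, Jun or Myc gene passed the test. Egr3, Egr2 and Egr1 were higher by 11.8-fold, 7.62-fold and 2.10-fold, and the other 7 were not called (limma over 14212 genes, Benjamini-Hochberg adjusted p under 0.05). The share of all tested genes called was 22.3% in either direction, 10.0% higher and 12.3% lower. The members were thus 3 of 10 higher and 0 of 10 lower, and by sign 6 of 10 were higher and 4 lower. Their median log2 fold change was 0.20, against −0.11 over all genes tested, and the median over all genes moved to 0.03 under quantile normalization. Without SPOP_CKI 3, and without the 3 libraries with Xist reads, 4 members were higher. Fos was called lower by DESeq2 (adjusted p = 0.00436) and by edgeR's quasi-likelihood test (adjusted p = 0.0369) on recovered reads, both with 3 members higher and 1 lower. An adjusted p under 0.05 stands beside 4 of the 10 in the authors' deposited table, where Fos is the one listed lower.

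**Figure D1:**
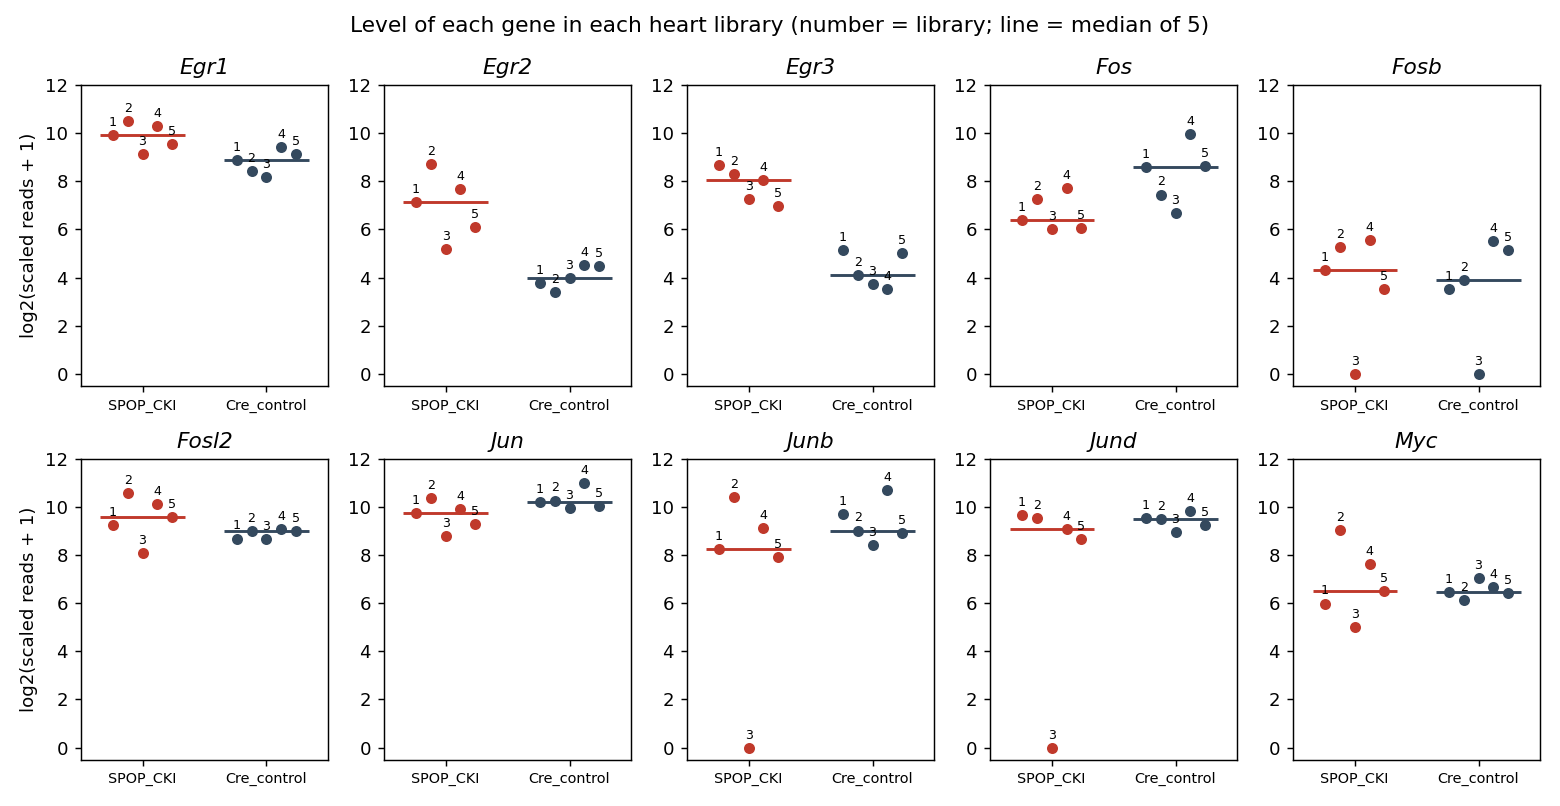
Level of each of the 10 genes as log2(scaled reads + 1) in every heart library, with SPOP_CKI left of Cre_control, the library number above each point and a line at the median of 5. All SPOP_CKI points lie above all Cre_control points for Egr2 and Egr3, and Junb, Jund and Fosb lie at 0 in library SPOP_CKI 3.

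Egr3 (ENSMUSG00000033730, mm10 chromosome 14, 70077203 to 70082614, plus strand), known for roles in muscle spindles and T cells, had 411, 316, 152, 265 and 125 scaled reads in SPOP_CKI libraries 1 to 5 in turn, against 33.95, 16.1, 12.5, 10.6 and 31.1 in Cre_control libraries 1 to 5. The lowest SPOP_CKI library lay well above the highest control, and the groups did not overlap. The means were 254 ± 118 in SPOP_CKI and 20.8 ± 10.9 in Cre_control (SD, n = 5 each), and the log2 fold change was 3.56 (SE 0.44, limma adjusted p = 0.000574). Only 0.134% of tested genes had a larger log2 fold change. The call held in each of the alternatives tried, with log2 fold changes between 3.30 and 4.02.

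Egr2 (ENSMUSG00000037868, chromosome 10, 67535475 to 67542188, plus strand), whose product drives myelination in Schwann cells and is also induced in activated macrophages, had 140, 423, 35.9, 203 and 67.3 scaled reads in SPOP_CKI libraries 1 to 5, against 12.7, 9.66, 14.7, 22.1 and 21.4 in Cre_control libraries 1 to 5. Again no SPOP_CKI library reached down to the controls, and SPOP_CKI 2 was the highest of the 10 and SPOP_CKI 3 the lowest of its group. The means were 174 ± 154 in SPOP_CKI and 16.1 ± 5.46 in Cre_control (SD, n = 5 each), with a log2 fold change of 2.93 (SE 0.60, limma adjusted p = 0.00669). The highest SPOP_CKI library was 11.8-fold above the lowest, a spread wider than the 2.29-fold of the controls. Controls stood near the filter of 10, so their values rest on few reads. Egr2 and Egr3 were 2 of 10 members without overlap, against 21.3% of all tested genes.

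Egr1 (ENSMUSG00000038418, chromosome 18, 34859823 to 34864984, plus strand), the most abundant of the 3 and a standard readout of growth factor signalling, had 956, 1432, 555, 1242 and 752 scaled reads in SPOP_CKI libraries 1 to 5. Cre_control libraries 1 to 5 had 469, 339, 285, 681 and 558. In SPOP_CKI 4 of 5 libraries exceeded the highest control, and SPOP_CKI 3 lay below controls 4 and 5. The means were 988 ± 356 in SPOP_CKI and 466 ± 161 in Cre_control (SD, n = 5 each), with a log2 fold change of 1.07 (SE 0.30, limma adjusted p = 0.0261). That call was lost without control 1, 2 or 3 (adjusted p = 0.0541, 0.0661 and 0.0628) and without SPOP_CKI 2 or 4 (adjusted p = 0.0516 and 0.0623), with log2 fold changes of 0.91 to 1.09 there. It was 1.26 without SPOP_CKI 3 and 1.39 without the 3 libraries with Xist reads (limma adjusted p = 0.00435 and 0.0101).

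Some markers of other cell types differed between the groups. Of 8 smooth muscle and pericyte markers 1 was called lower, and of 3 tested Schwann markers 0 were called. Of 10 cardiomyocyte markers 1 was called higher and 4 lower, and of 9 fibroblast markers 1 was called higher and 0 lower. Lower calls numbered 4 of 8 endothelial and 4 of 5 erythroid markers, with 0 higher in both lists. All 3 tested neutrophil markers were called higher, with list sums of 165 to 691 scaled reads in SPOP_CKI and 60.1 to 180 in Cre_control. Of 8 macrophage and monocyte markers 2 were called higher and 0 lower, against 10.0% of all tested genes higher and 12.3% lower. Their sums, with all 8 above 0, overlapped between groups. They ranged from 4843 to 23178 scaled reads in SPOP_CKI and from 4882 to 7414 in Cre_control, with 16130 and 23178 in SPOP_CKI 2 and 4. Summed activated fibroblast markers ranged from 2633 to 38580 in SPOP_CKI and from 752 to 1614 in Cre_control. All 7 were above 0, and of 6 tested 4 were called higher and 0 lower. Egr1 and Egr2 were also highest in SPOP_CKI 2 and 4, whereas Egr3 was highest in SPOP_CKI 1 and 2. In bulk tissue, fewer cells of a type and less RNA per cell cannot be told apart, and the part of these cells in the Egr levels was not tested.

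Fos (ENSMUSG00000021250, chromosome 12, 85473890 to 85477273, plus strand), the founding AP-1 component, stood at 82.2, 152, 63.1, 207 and 64.9 scaled reads in SPOP_CKI libraries 1 to 5. Cre_control libraries 1 to 5 had 385, 174, 101, 993 and 400. The groups overlapped, 3 SPOP_CKI libraries lay below the lowest control, and the controls spanned 9.84-fold with control 4 at the top. The means were 114 ± 63.6 in SPOP_CKI and 411 ± 351 in Cre_control (SD, n = 5 each), and the log2 fold change of −1.59 (SE 0.57) missed the threshold (limma adjusted p = 0.0658). Without control 3, the lowest control, it passed (log2 fold change −1.98, limma adjusted p = 0.0277), and without control 4 it was −1.16 (limma adjusted p = 0.145). Fos was lower in SPOP_CKI under each alternative tried, and quantile normalization also brought it past the threshold (limma adjusted p = 0.0463).

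Fosb (ENSMUSG00000003545, chromosome 7, 19302696 to 19310051, minus strand), a stimulus-induced relative of Fos, was scarce. It had 19.0, 38.0, 0, 46.2 and 10.6 scaled reads in SPOP_CKI libraries 1 to 5, against 10.6, 13.9, 0, 45.2 and 34.3 in Cre_control libraries 1 to 5. The ranges coincided, and the gene was listed at 0 in SPOP_CKI 3 and in control 3 (log2 fold change 0.12, 95% interval −2.59 to 2.83, limma adjusted p = 0.953). Its sign turned without SPOP_CKI 1, 2 or 4 and without control 3 (log2 fold changes −0.03, −0.27, −0.34 and −0.79).

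Fosl2 (ENSMUSG00000029135, chromosome 5, 32135801 to 32157842, plus strand), a more slowly induced Fos relative linked to fibrosis in mice, had 605, 1522, 269, 1125 and 770 scaled reads in SPOP_CKI libraries 1 to 5. The controls were tight, at 411, 507, 405, 535 and 511 in Cre_control libraries 1 to 5. In SPOP_CKI 4 of 5 libraries exceeded every control and SPOP_CKI 3 lay below every control. With all libraries the log2 fold change was 0.64 (SE 0.38, limma adjusted p = 0.239). Without SPOP_CKI 3 it was 1.004 (SE 0.24, limma adjusted p = 0.00752), and without the 3 libraries with Xist reads 1.25 (limma adjusted p = 0.00419). Fosl2 averaged 858 ± 482 scaled reads in SPOP_CKI and 474 ± 61.4 in Cre_control (SD, n = 5 each). Per kilobase of gene length it exceeded Fos in all 5 SPOP_CKI libraries.

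**Figure D2:**
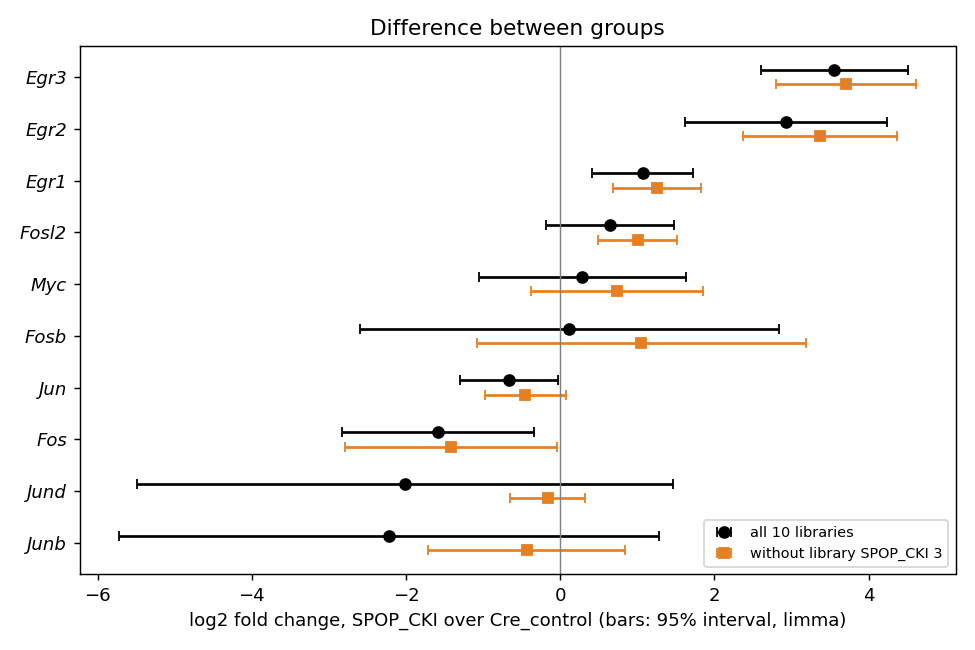
Log2 fold change of each gene, SPOP_CKI over Cre_control, with 95% intervals from limma, for all 10 libraries (circles) and without library SPOP_CKI 3 (squares). The Egr genes lie right of 0 in both, Fosl2 clears 0 without SPOP_CKI 3, and the lower ends of the Junb and Jund intervals lie at −1.71 and −0.66 without that library, against −5.72 and −5.48 with it.

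Jun (ENSMUSG00000052684, chromosome 4, 95049034 to 95052222, minus strand), the main FOS partner and a target of JNK, had 856, 1329, 439, 958 and 632 scaled reads in SPOP_CKI libraries 1 to 5. Cre_control libraries 1 to 5 had 1182, 1227, 977, 2032 and 1052. In SPOP_CKI 4 of 5 libraries lay below every control, and SPOP_CKI 2 lay above 4 of the 5 controls. The means were 843 ± 338 in SPOP_CKI and 1294 ± 424 in Cre_control (SD, n = 5 each), and the log2 fold change of −0.66 (95% interval −1.30 to −0.02) did not pass (limma adjusted p = 0.122). It passed without SPOP_CKI 2 (log2 fold change −0.85, limma adjusted p = 0.0483), and with GC centring it was −0.15 (limma adjusted p = 0.617). The antisense gene Junos overlaps 689 bases of Jun and averaged 25.9 scaled reads in SPOP_CKI and 22.1 in Cre_control. The sources used here do not give the strand setting of the counting, so reads from the shared bases cannot be told apart.

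Junb (ENSMUSG00000052837, chromosome 8, 84974484 to 84978718, minus strand) and Jund (ENSMUSG00000071076, chromosome 8, 70698949 to 70700616, plus strand) are Jun relatives, Jund being the form present in unstimulated cells. Junb had 302, 1351, 0, 559 and 241 scaled reads in SPOP_CKI libraries 1 to 5, against 839, 517, 345, 1654 and 484 in Cre_control libraries 1 to 5. Jund had 812, 745, 0, 544 and 403 in SPOP_CKI libraries 1 to 5, against 739, 723, 490, 901 and 599 in Cre_control libraries 1 to 5. Both were listed at 0 in SPOP_CKI 3, and in the other libraries the groups overlapped. The log2 fold changes of −2.22 and −2.01 (limma adjusted p = 0.329 and 0.372) became −0.43 and −0.16 without SPOP_CKI 3 (95% intervals −1.71 to 0.84 and −0.66 to 0.33). Junb shares 351 bases with Prdx2 on the other strand, a gene of 4103 scaled reads in SPOP_CKI and 4937 in Cre_control on average, so its reads are uncertain.

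The zeros of Junb and Jund stood beside their base composition. Their longest transcripts have a GC content of 62.6% and 67.1%, and the other 8 members have 51.3% to 57.3%. Among tested genes averaging at least 100 scaled reads, 14.5% of the 344 with a GC content from 60% to under 65% and 34.4% of the 32 at 65% or more were listed at 0 in SPOP_CKI 3, against 0.697% of the 2726 genes under 45%. The median ratio of SPOP_CKI 3 to the median of the other SPOP_CKI libraries was 0.314, 0.152 and 1.30 in those classes in the same order. SPOP_CKI 3 was the lowest of its group for 9 of the 10 members, all but Egr3, and for 42.3% of all tested genes. After centring each library by GC content, an alternative chosen after seeing the data, Egr1, Egr2 and Egr3 were each still called, at log2 fold changes of 1.61, 3.03 and 3.65 (limma adjusted p = 0.00119, 0.00426 and 0.00042), and Fos was at −1.35 (limma adjusted p = 0.0961).

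**Figure D3:**
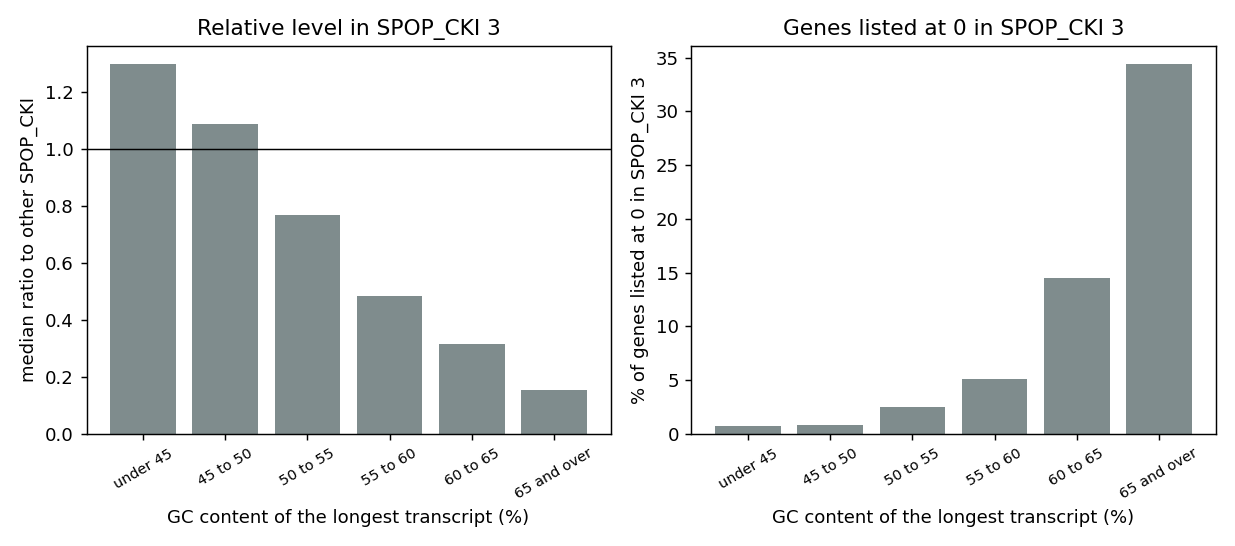
Library SPOP_CKI 3 by transcript GC content, for tested genes averaging at least 100 scaled reads. Bars show the median ratio of SPOP_CKI 3 to the median of the other SPOP_CKI libraries (left; line at 1) and the percentage of genes listed at 0 (right). The ratio falls to 0.152 and the percentage at 0 reaches 34.4% in the class with the highest GC content, which holds Jund.

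Myc (ENSMUSG00000022346, chromosome 15, 61985391 to 61990374, plus strand), a driver of ribosome production and growth, had 62.3, 518, 31.5, 196 and 88.6 scaled reads in SPOP_CKI libraries 1 to 5. Cre_control libraries 1 to 5 had 87.0, 68.7, 130, 99.96 and 84.7. SPOP_CKI 2 and 4 lay above every control and SPOP_CKI 1 and 3 below every control, so that the SPOP_CKI libraries spanned 16.4-fold and the controls 1.90-fold. The log2 fold change was 0.29 (95% interval −1.06 to 1.63, limma adjusted p = 0.759) and turned to −0.26 without SPOP_CKI 2. On recovered reads it was 0.94 with edgeR and 0.93 with DESeq2, neither past the threshold. SPOP_CKI 2 and 4 were also the libraries with the highest macrophage and activated fibroblast sums, 16130 and 23178 and 23865 and 38580 scaled reads, and their part in the Myc level was not tested.

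Several members peaked in the same library of each group. In SPOP_CKI, library 2 was the highest for 6 of the 10 genes (Egr1, Egr2, Fosl2, Jun, Junb and Myc) and for 22.6% of all tested genes. In Cre_control, library 4 was the highest for 8 of the 10, all but Egr3 and Myc, and for 28.5% of all tested genes. Control 3 was the lowest for 7 of the 10 and for 21.2% of tested genes. Of the 33 other immediate early genes, 21 were highest in SPOP_CKI 2 within its group and 20 were highest in control 4 within its group. Egr3 stood outside this order, as control 4 was its lowest control. Control 4 also had the highest sums of erythroid markers, 28111 scaled reads against 13967 in the lowest control, and of endothelial markers, 60920 against 45538. Erythroid sums ranged from 5309 to 8887 in SPOP_CKI and from 13967 to 28111 in Cre_control, with 5 of 5 markers above 0, and the part of these cells in the member levels was not tested.

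Ratios within a library do not depend on the scaling of that library, and pairs were chosen for this description after their values were seen, so no test is given. Per kilobase of gene length, the log2 ratio of Egr1 to Jun was between −0.38 and −0.12 in the SPOP_CKI libraries, against −2.35 to −1.41 in the Cre_control libraries. The means were −0.25 ± 0.11 in SPOP_CKI and −1.98 ± 0.38 in Cre_control (SD, n = 5 each). The ratio of Egr1 to Fos was 2.28 ± 0.39 in SPOP_CKI and −0.39 ± 0.76 in Cre_control, so that Egr1 RNA exceeded Fos RNA in all 5 SPOP_CKI libraries and in 2 of 5 controls. The Egr3 to Fos ratio was 0.28 ± 0.72 in SPOP_CKI and −4.94 ± 1.43 in Cre_control, and the Fosl2 to Fos ratio was 0.82 ± 0.61 in SPOP_CKI and −1.42 ± 1.16 in Cre_control (log2, SD, n = 5 each). For each of the 6 pairs drawn, every SPOP_CKI library lay above every control. Choosing pairs by their values favours such a separation, and its share over all gene pairs was not computed. SPOP_CKI 3 lay inside the range of its group for Egr1 to Jun, at −0.15, and for Egr1 to Fos, Egr3 to Fos and Egr3 to Egr1. That library was the lowest of its group for Egr2 to Fos, at −1.34, and for Fosl2 to Fos, at 0.05.

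**Figure D4:**
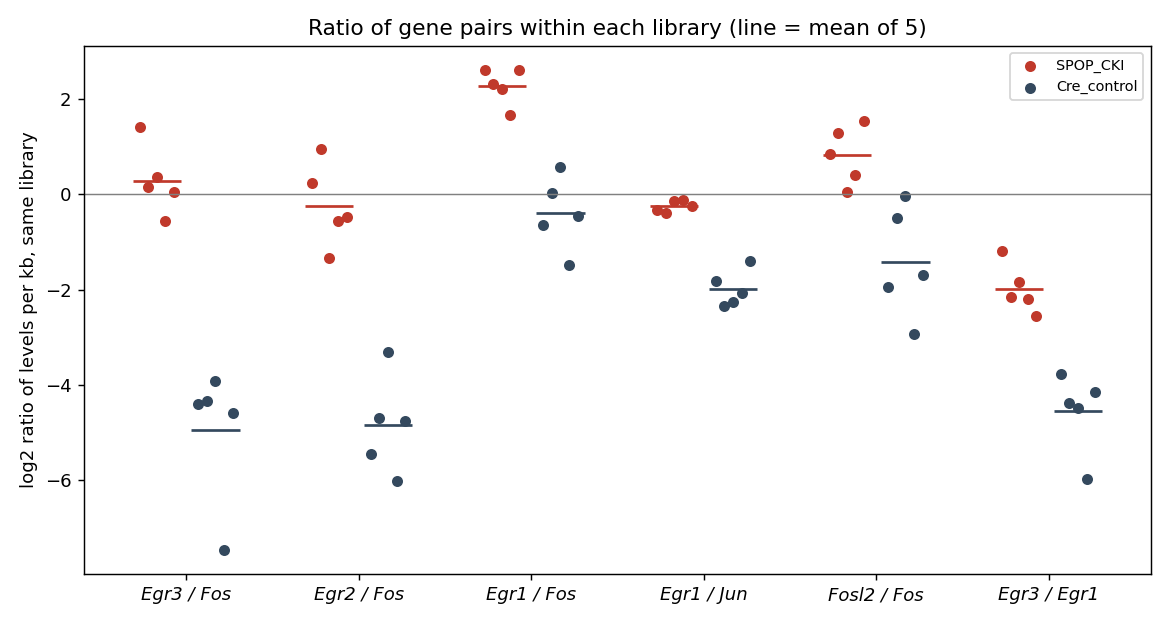
Log2 ratio of the levels per kilobase of 6 gene pairs within each library, with SPOP_CKI left of Cre_control in each pair and a line at the mean of 5. No SPOP_CKI point overlaps a Cre_control point in any of the 6 pairs, which were chosen after their values were seen.

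The order of mean levels per kilobase of gene length began with Jund and Jun in both groups. In SPOP_CKI it ran from Jund through Jun (264 ± 106 scaled reads per kilobase), Egr1, Junb, Fosl2, Myc, Egr3 and Egr2 to Fos (48.4 ± 27.0) and Fosb. Neighbours in this order overlapped in their library values except Fos and Fosb. In Cre_control it ran from Jund (414 ± 93.0) through Jun, Junb, Fos (175 ± 149), Egr1, Fosl2, Myc and Egr2 to Egr3 (4.73 ± 2.47) and Fosb. There only Egr1 and Fosl2, and Myc and Egr2, were separated. By mean, Fos took rank 9 of the 10 in SPOP_CKI and rank 4 in Cre_control (SD, n = 5 each).

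Of the 11 AP-1 and EGR partner genes listed, 8 were tested, 1 rose and 0 fell, against 10.0% of all tested genes higher and 12.3% lower, and the median log2 fold change of the list was 0.34, against −0.11 over all genes tested. The riser was Nab1, an EGR corepressor, with 1006 to 1369 scaled reads in SPOP_CKI and 529 to 731 in Cre_control (log2 fold change 0.90, SE 0.14, limma adjusted p = 0.00198). Jdp2, a JUN dimerization partner that represses AP-1, averaged 105 ± 49.3 in SPOP_CKI and 185 ± 48.8 in Cre_control and did not pass (SD, n = 5 each, limma adjusted p = 0.0874). Batf and Batf3 did not pass the filter, and Egr4 was not analysed here.

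Of 33 other immediate early genes, 1 rose and 5 fell, against 10.0% of all tested genes higher and 12.3% lower. The list median was −0.10, close to the −0.11 over all genes tested, and the share that fell was near that of all genes. Those that fell were Zfp36 (2.78-fold), whose product destroys AU-rich messages such as that of Fos, Klf10 (2.37-fold), the MAP kinase phosphatase gene Dusp1 (2.09-fold), Klf2 (1.95-fold) and Klf4 (1.51-fold). Zfp36 had 366, 951, 204, 531 and 269 scaled reads in SPOP_CKI libraries 1 to 5, against 1194, 874, 845, 1802 and 1079 in Cre_control libraries 1 to 5 (limma adjusted p = 0.0182). Klf2 averaged 1113 ± 254 in SPOP_CKI and 2143 ± 288 in Cre_control without overlap (SD, n = 5 each, limma adjusted p = 0.00446). Summed endothelial markers, 8 of 8 above 0, ranged from 19973 to 32306 in SPOP_CKI and from 45538 to 60920 in Cre_control, and their part in the levels of Klf2 and Klf4, which endothelial cells express, was not tested. The gene that rose was Dusp6, an ERK phosphatase, at 756 ± 228 in SPOP_CKI and 423 ± 58.3 in Cre_control (SD, n = 5 each, limma adjusted p = 0.0314). Klf4 and Dusp6 were named after their values were seen. The number that rose was 0 without control 1, 3 or 5 or without SPOP_CKI 2 or 4, 2 without SPOP_CKI 1 and 5 without SPOP_CKI 3. The number that fell was 3 without control 1 or 2 and 2 without control 4. GC centring gave 5 higher and 2 lower, and 5 rose without the libraries with Xist reads.

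Upstream, 29 of 30 genes of the serum response factor, CREB and MAP kinase input were tested, of which 3 rose and 4 fell, against 10.0% of all tested genes higher and 12.3% lower. Both shares were near those of all genes, and the list median of −0.09 was close to the −0.11 over all genes tested. The CREB family genes Crem (2.26-fold, limma adjusted p = 0.00604) and Creb1 and the RSK gene Rps6ka3 (1.88-fold, limma adjusted p = 0.00301) rose. Crem had 318, 400, 531, 369 and 220 scaled reads in SPOP_CKI libraries 1 to 5, against 161, 189, 168, 146 and 121 in Cre_control libraries 1 to 5, without overlap. Mapk3, which encodes the kinase ERK1, fell to 870 ± 264 in SPOP_CKI, against 1739 ± 265 in Cre_control (SD, n = 5 each, log2 fold change −1.06, limma adjusted p = 0.0114). Map2k5 (1.70-fold), Map2k7 and Araf, kinases of the same cascades, also fell. Creb1, Map2k7 and Araf were named after their values were seen. The number that fell was 2 without any of the 5 controls or without SPOP_CKI 4. Without a filter it was 2, and with GC centring 5 rose and 2 fell.

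In the MAX network, 0 of 10 tested genes rose and 4 fell, against 10.0% of all tested genes higher and 12.3% lower (list median −0.61, all genes −0.11). The MYC partner gene Max averaged 563 ± 167 in SPOP_CKI and 883 ± 147 in Cre_control (SD, n = 5 each, limma adjusted p = 0.0396), and the MYC antagonist genes Mnt and Mxd4 were 2.95-fold and 2.58-fold lower (limma adjusted p = 0.0249 and 0.0208). Mlxipl, a carbohydrate-responsive factor of the network, had 82.2, 59.5, 0, 45.3 and 50.8 scaled reads in SPOP_CKI libraries 1 to 5, against 207, 227, 339, 245 and 218 in Cre_control libraries 1 to 5, without overlap (limma adjusted p = 0.0426). The number that fell was 0 without control 4, 1 without control 1 or 3 and 2 without control 5 or SPOP_CKI 4, and 2 without a filter.

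Of 20 textbook MYC targets, 4 rose and 0 fell, against 10.0% of all tested genes higher and 12.3% lower (list median 0.32, all genes −0.11). They were the cell cycle gene Ccnd2 (2.61-fold), the nucleolar genes Nop58 (2.28-fold) and Nolc1 (1.49-fold) and the polyamine enzyme gene Odc1 (1.97-fold). In that order the limma adjusted p-values were 0.00656, 0.00582, 0.0262 and 0.00269. All 4 were without overlap between groups, against 21.3% of all tested genes, but they were picked because they were called. Odc1 had 1990, 3274, 2476, 2133 and 2081 scaled reads in SPOP_CKI libraries 1 to 5, against 1345, 1153, 1110, 1052 and 1335 in Cre_control libraries 1 to 5. The number that rose was 7 without SPOP_CKI 3 and 7 with GC centring.

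Genes with the most similar level profile over the 10 libraries were taken for 1 gene of each family, as the 3 with the smallest root mean square difference of log2(value + 1) after centring, among 9846 protein-coding genes averaging at least 100. For Egr1 these were Prmt2, Slc20a1 and Rbbp8, at differences of 0.27, 0.30 and 0.31. A flat profile lay at 0.72 from Egr1. For Fos they were Naa38 (0.56), the immediate early nuclear receptor gene Nr4a1 (0.62) and Zfp36 (0.62), with a flat profile at 1.22. Nr4a1 had 523, 368, 133, 398 and 165 scaled reads in SPOP_CKI libraries 1 to 5, against 702, 246, 243, 2340 and 1954 in Cre_control libraries 1 to 5 (limma adjusted p = 0.171). For Jun they were Cyth2 (0.16), Adprhl2 (0.16) and Rras (0.17), with a flat profile at 0.57, and for Myc they were Sbno2 (0.29), Irf5 (0.38) and Slfn2 (0.39), with a flat profile at 1.01. All points share the same 10 libraries and their composition.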

How the data were processed

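Heart poly(A) RNA of 5 SPOP_CKI and 5 Cre_control mice was compared, grouped by the titles in the labels. Per the submitters' processing notes, the authors counted reads with featureCounts 1.5.0-p3 and used DESeq2 1.20.0 on mm10. The sources used here name no aligner. The deposited values are a scaled read signal. Dividing by what 1 read is worth in a library left whole numbers throughout (100%, within 0.001). The authors also deposited group means, a log2 fold change, a p-value with its adjusted p-value, and gene length. The test was limma 3.58.1 in R 4.3.3 (trend and robust variances) on log2(value + 1), two-sided, over 14212 genes reaching 10 in 5 or more libraries, with Benjamini-Hochberg adjustment at 0.05 and genotype as the sole term. Folds are on the log2(value + 1) scale, converted back, which understates the change of low genes. The fit was tested on simulated data. Libraries of a group all differed by more than sampling noise (chi-square over degrees of freedom at least 13.8). Labels name neither litter nor batch, and the p-values therefore cover only variation among these libraries, which may be technical.

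Alternatives were edgeR 4.0.16 and DESeq2 1.42.0 on recovered reads, TMM and quantile scaling, pseudocounts of 0.5 and 5, no filter, a replicate block and leaving out each library. GC centring in 20 bins and leaving out the libraries with Xist reads were added after seeing the data. Members and lists were chosen with earlier results of these data known. Named are the members and Spop, up to 4 called genes of each list by size of change (or the 2 with the smallest p where fewer than 2 were called), and the 3 nearest profiles of Egr1, Fos, Jun and Myc. Other genes are said to have been named after their values were seen. Transcript GC content came from GENCODE M21 (GRCm38), found for 99.9% of genes, and promoter sequences from RefSeq on GRCm38.p6.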

Additional observations from a re-analysis of the deposited data

Results flagged for a closer look

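In 58 groups of 5 libraries, for 29 named genes, 3 had a library whose gap to the nearest other exceeded the critical share of the range, where chance gives about 1 in 20. Jun stood at 2032 scaled reads in control 4, against 977 to 1227 in the other controls. Mxd4 stood at 3468 in control 4, against 1851 to 2001 in the other controls. Mlxipl stood at 339 in control 3, against 207 to 245 in the other controls.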

How the results depend on the processing

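Egr2 and Egr3 were called higher under every alternative tried, and the direction of Egr1, Fos, Fosl2, Jun, Junb and Jund held in all of them. The number of members lower, 0 of 10, was 1 (Fos) with edgeR, DESeq2, quantile normalization and the replicate block, and 0 to 1 when single libraries were left out, the 1 being Fos without control 3 and Jun without SPOP_CKI 2. The number higher, 3, was 2 to 4 in those fits. The cause was not tested. Fosb turned to −0.03, −0.27, −0.34 and −0.79 on the log2 scale without SPOP_CKI 1, 2 and 4 and control 3, and Myc to −0.26 without SPOP_CKI 2. Leaving out single libraries gave −0.79 to 1.05 for Fosb and −0.26 to 0.74 for Myc, which was 0.94 with edgeR and 0.93 with DESeq2. Genes called over the whole table, 1421 higher and 1747 lower, were 889 to 1944 higher and 1063 to 2456 lower when single libraries were left out. With edgeR on recovered reads 1683 were higher and 1485 lower, and with DESeq2 2115 and 2026. The numbers in the titles were not taken to pair the libraries, since same-numbered libraries correlated at 0.03 to 0.16 in their deviations from the group means and only numbers 1 and 3 matched best with their own number. With the replicate block, 1310 genes were higher and 1636 lower, and Fos passed (log2 fold change −1.59, limma adjusted p = 0.0275), and 1 AP-1 or EGR partner was lower, against 0 without the block. Few reads limit Egr2, Egr3 and Fosb in controls.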
